A study of Mus musculus with 1699 samples.

Results

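Immature neuron genes are the set of 10 genes Sox4, Sox11, Sox12, Dcx, Stmn1, Igfbpl1, Cd24a, Nrep, Draxin and Gpc2, taken by name as genes known to mark newly formed neurons, out of 39468 gene entries per cell, of which 38130 carry a symbol. They were chosen with earlier results of these data known. They were followed in 1699 single cells sorted for GFP from the ventral midbrain of mice that carry an eGFP gene knocked in at Pitx3 (Pitx3tm1Mli), sequenced with the full-length method Smart-seq2. Pitx3eGFP/wt heterozygotes, which keep 1 working copy of Pitx3, were sampled in the embryo at E13.5, then E15.5 and E18.5, and after birth at P1, then P7 and the adult P90, while Pitx3eGFP/eGFP homozygotes, which keep no working copy, were sampled at E13.5 and P1. The labels name no treatment, and the eGFP that selected the cells is driven by the Pitx3 locus in all groups; in the kept cells it was over an RPKM of 10 in 51.1% (P90) to 94.3% (E15.5) of heterozygote cells and in 88.8% and 87.4% of homozygote cells at E13.5 and P1, so cells with little or no eGFP RNA were also present. Several animals were used per stage, but none is named for a cell, so each of the 8 groups counts as 1 sample, no test was run and intervals cover counting error only. The E18.5, P90 and both homozygote groups, and part of the P1 heterozygote cells, contained ERCC spike-in RNA, and the dissociation kit was one for the embryos, another for P1 and P7 and a papain kit for P90.

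After filtering, 1487 cells were described, 1149 of them heterozygote and 338 homozygote. Of all 1487, the heterozygotes of E13.5 made up 9.35%, those of E15.5 9.42%, of E18.5 12.6%, of P1 18.02%, of P7 6.05% (90 cells, the smallest group) and of P90 21.9%, and the homozygotes of E13.5 12.04% and of P1 10.7%. The cells held 100007 to 8634201 counted reads, with group medians between 753256 and 2354720. Values are RPKM, the reads of a gene scaled to the length of its gene model and to the total reads of the cell, and a gene was called detected in a cell over an RPKM of 10. The neuron label held for most cells: Tubb3, a neuronal tubulin, had a mean of 629.5 to 4165 RPKM in the 8 groups. At least 2 of 5 neuron markers were over 10 in 93.3% of P7 cells and in 98.7 to 100% of the other groups. Among P7 cells with Th at or below 10 RPKM 77.8% had them. Th, the rate-limiting enzyme of dopamine synthesis, had a mean of 565 to 1744 RPKM. Pitx3 had a mean of 17.9 to 418.7 RPKM in the heterozygote groups and of 18.8 and 8.41 RPKM in the homozygotes. Cells with at least 2 detected markers of an oligodendrocyte, astrocyte, microglial, vascular or red blood cell list were still present, at 45.6% of the cells of P7, 19.03% and 28.3% of the heterozygote and homozygote cells of P1, 19.3% at E18.5, 7.08% at P90, 5% at E15.5 and 2.88% and 4.47% of the heterozygote and homozygote cells of E13.5.

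A neuron that has left the cell cycle must still move, extend an axon and settle its identity, and for this it uses proteins that it largely gives up once it matures. The SoxC transcription factors Sox4, Sox11 and Sox12 promote neuronal gene expression, and Dcx and Stmn1 act on microtubules, the first by binding and stabilising them and the second by sequestering tubulin. Cd24a is a surface glycoprotein and Gpc2 a heparan sulfate proteoglycan of growing axons, Draxin is a secreted repellent in axon guidance, Igfbpl1 is a secreted protein related to the binding proteins of insulin-like growth factors, and Nrep is a small intracellular protein of developing and regenerating neurons.

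Positions are those of GENCODE vM21 on GRCm38, the assembly that mm10 stands for. Sox4 is at chr13:28948919-28953713, Sox11 at chr12:27334264-27342574 and Sox12 at chr2:152393611-152398063, all on the minus strand, and Sox4 and Sox11 have 1 exon. Dcx is at chrX:143855842-143933311 on the minus strand and Stmn1 at chr4:134468320-134473843 on the plus strand. Igfbpl1 (chr4:45809468-45826923), Draxin (chr4:148098437-148130698) and Gpc2 (chr5:138273655-138280005) are on the minus strand, and Cd24a (chr10:43578284-43584265) is on the plus strand. Exons of Sox4 overlap those of Gm26735 on the opposite strand, exons of Stmn1 those of Gm23634 and exons of Gpc2 those of Gm43720, both on the same strand, so reads could be shared within these pairs. The length behind an RPKM, obtained by dividing a cell's reads by its RPKM and total reads, had a median of 1718 bases for Sox11 and 1849 bases for Sox4, against annotated transcripts of 8311 and 4795 bases. For Stmn1 that length was 239.5 bases against 1060 bases, so the RPKM of Stmn1 is set against very few bases, and levels are compared here mainly within a gene.

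The 300 bases around the transcription start (250 before to 50 after, RefSeq, GRCm38.p6) were at hand for 6 of the 10 genes. Those of Draxin and Gpc2, which stayed below 50% of the E13.5 level from E15.5, and of Sox4 and Dcx, which stayed there from P1 and P7 (Sox4 after a first low value at E15.5), are shown as examples from different places in the order of the fall. Those of Sox11 and Sox12 are not shown, and Sox12 went below 50% later than Dcx, only at P90. Capitals mark E-boxes (CANNTG, which reads the same on both strands), the element bound by basic helix-loop-helix factors.
Draxin, chr4:148130649-148130948, minus strand: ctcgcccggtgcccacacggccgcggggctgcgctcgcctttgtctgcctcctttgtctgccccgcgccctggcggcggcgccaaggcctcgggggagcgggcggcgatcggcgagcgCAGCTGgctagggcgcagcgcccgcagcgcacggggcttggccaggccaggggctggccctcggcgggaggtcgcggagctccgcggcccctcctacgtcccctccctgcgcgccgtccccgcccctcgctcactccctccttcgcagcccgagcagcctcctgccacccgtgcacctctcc
Gpc2, chr5:138279888-138280187, minus strand: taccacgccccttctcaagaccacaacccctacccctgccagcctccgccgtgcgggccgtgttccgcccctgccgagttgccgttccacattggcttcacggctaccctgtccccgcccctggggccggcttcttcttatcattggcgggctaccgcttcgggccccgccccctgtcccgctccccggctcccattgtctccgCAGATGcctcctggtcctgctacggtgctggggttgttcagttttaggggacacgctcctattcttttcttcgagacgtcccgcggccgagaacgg
Sox4, chr13:28953650-28953949, minus strand: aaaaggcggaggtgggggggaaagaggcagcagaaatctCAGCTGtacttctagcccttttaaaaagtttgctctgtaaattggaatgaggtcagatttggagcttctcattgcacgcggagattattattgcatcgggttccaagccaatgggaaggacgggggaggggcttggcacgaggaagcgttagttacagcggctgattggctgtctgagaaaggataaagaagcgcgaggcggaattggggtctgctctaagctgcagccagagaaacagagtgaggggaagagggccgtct
Dcx, chrX:143933170-143933469, minus strand: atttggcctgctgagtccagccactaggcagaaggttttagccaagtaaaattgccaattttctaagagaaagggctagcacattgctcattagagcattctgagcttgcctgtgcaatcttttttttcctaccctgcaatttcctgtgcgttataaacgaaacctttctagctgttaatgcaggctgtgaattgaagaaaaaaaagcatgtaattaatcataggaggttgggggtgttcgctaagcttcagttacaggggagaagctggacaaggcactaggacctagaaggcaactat
Among the genes with a promoter, 5 of 6 held at least 1 E-box, Dcx being the exception, and 72.3% of all 32851 promoters of this length held one. The GC box (GGGCGG or CCGCCC) occurred in 4 of 6, against 35.7% of all promoters. There were 2 in Draxin, 3 in Gpc2, 2 in Sox11, 4 in Sox12 and none in Sox4 or Dcx. The SOX motif AACAAT, on either strand, occurred in none of the 6 and in 10.7% of all promoters. GC content was 78% in the Draxin window, 65.7% in that of Gpc2, 52% in that of Sox4 and 43% in that of Dcx. In the windows not shown it was 58.7% for Sox11 and 76.7% for Sox12, so it did not follow the order of the fall. These matches are a description of the windows only.

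Between E13.5 and P90 the mean level of every one of the 10 genes was lower at the end than at the start. Of the 8 members that averaged 10 RPKM or more at E13.5, 7 were below 10% of their E13.5 mean at P90, where 2.27% of the 7669 genes averaging 10 RPKM or more at E13.5 were, and all 8 were below 50%, where 26.9% of genes were. The members were chosen with earlier results of these data known, and the 10 RPKM limit was set at E13.5. The paper had reported Cd24a and Nrep as early genes from these cells, and had also shown their early expression by in situ hybridization. These counts therefore describe the set and are no evidence for its choice. Sox11 and Sox12, with means of 2.77 and 7.17 RPKM at E13.5, did not average 10 RPKM and were at 9.28% and 9.58% of their E13.5 means at P90. Over all 10 genes, the median share left of the E13.5 level was 56.2% by E15.5 and 38.7% by E18.5, then 31.4% in P1 cells, 22.5% in P7 cells and 2.60% in P90 cells. For the 7669 genes the same medians were 94.9%, 90.1%, 90.3%, 88% and 78.7%.

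**Figure D1:**
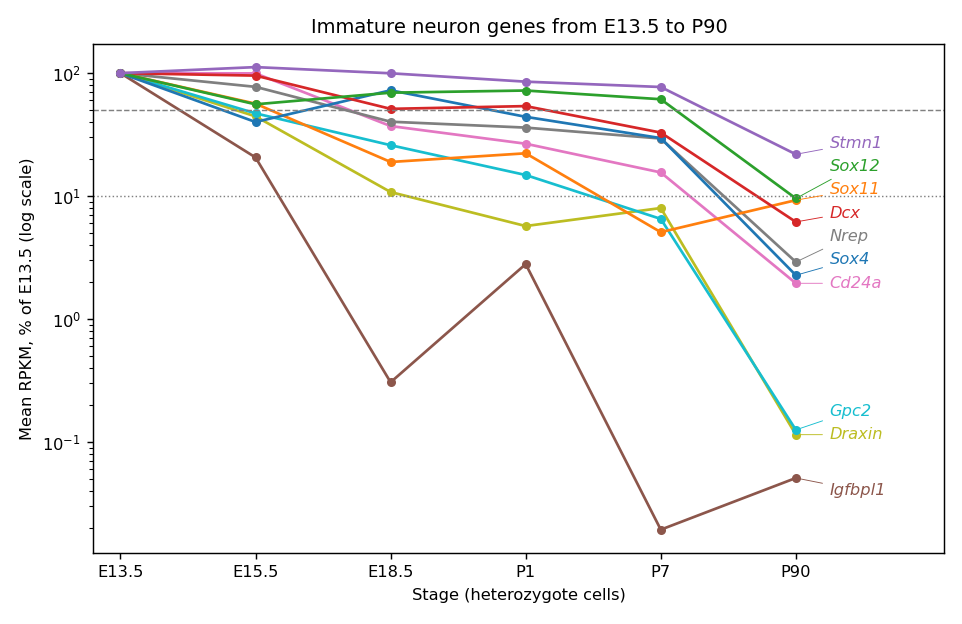
Mean RPKM of the 10 immature neuron genes in heterozygote cells, as a percentage of the E13.5 mean on a log axis, by stage. The dashed line is 50% and the dotted line 10%; Igfbpl1 is at 20.7% by E15.5, while Stmn1 is still at 77.2% at P7 and 21.9% at P90.

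The genes went below 50% of their E13.5 level, and stayed there, at different stages. Igfbpl1, Draxin and Gpc2 did so from E15.5, Cd24a, Nrep and Sox11 from E18.5, Sox4 from P1, Dcx from P7, and Sox12 and Stmn1 only at P90. Below 10%, Igfbpl1 stayed from E18.5, Draxin from P1, Gpc2 and Sox11 from P7 and Cd24a, Nrep, Sox4, Dcx and Sox12 from P90, and Stmn1 did not get there. By the share left at P90 the order was Igfbpl1 (0.0511%), Draxin (0.115%), Gpc2 (0.126%), Cd24a (1.96%), Sox4 (2.28%), Nrep (2.92%), Dcx (6.17%), Sox11 (9.28%), Sox12 (9.58%) and Stmn1 (21.9%). Over the 4 numbered sets of wells at P90, here called plates, the ranges of neighbours in this order overlapped except between Gpc2 (0 to 0.291%) and Cd24a (1.03 to 3.74%) and between Sox12 (1.93 to 20.2%) and Stmn1 (20.5 to 23.6%). At P90 Igfbpl1, Draxin and Gpc2 could therefore not be ordered among themselves, but their ranges over the 2 E18.5 plates were apart, at 0.101 to 0.519%, 9.18 to 12.5% and 20.5 to 31.6% of E13.5. Stmn1 came last, and the 6 genes between could not be told apart at P90 neighbour by neighbour. The place of Dcx was near the limit: it stood at 51.3% by E18.5, 54% in P1 cells and 32.9% in P7 cells, and by median RPKM it stayed below 50% from E18.5.

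Steps between neighbouring stages were uneven. From E13.5 to E15.5 the means of 4 of 8 genes at or over 10 RPKM went below 50% of the earlier mean (Igfbpl1, Draxin, Gpc2 and Sox4), where 5.07% of all genes did, and from E15.5 to E18.5 those of 3 of 8 (Igfbpl1, Draxin and Cd24a), where 4.5% did. From E18.5 to P1 none of 6 did, against 0.282% of genes, and from P1 to P7 1 of 6, Gpc2, against 0.84%. From P7 to P90 all 6 did, where 18.2% of all genes did. E13.5 and E15.5 cells shared kit and lacked spike-in RNA, while E18.5 cells had it. P1 cells differed from E18.5 cells in kit, and only part of them had spike-in RNA. P7 cells shared the kit of P1 and had no spike-in RNA, and P90 cells differed from them in both. From E15.5 to E18.5, from E18.5 to P1 and from P7 to P90 stage and preparation therefore cannot be told apart. Nor can they from P1 to P7 over all P1 cells. The P1 cells without spike-in RNA were like P7 cells in kit and spike-in. Against these cells alone the mean of Gpc2 at P7 was not below 50%.

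Igfbpl1 had a mean of 101.5 RPKM at E13.5 and 20.96 at E15.5, and over the 4 later stages in turn 0.312, 2.85, 0.0197 and 0.0519 RPKM. This level came from a minority of cells: the median cell had 0.174 RPKM at E13.5, the highest 1456, and 26.6% of cells (37 cells, exact binomial 95% interval 19.5 to 34.8%) were over 10. At E15.5 17.1% were (11.3 to 24.4%), and at E18.5 1 cell was (0.535%). At P7 0 of 90 cells were, which allows a share of up to 3.33%. Among the 8 genes with a mean of at least 10 RPKM at E13.5 it was the only one over 10 in a minority of cells.

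Draxin had means of 59.6, 26.5, 6.44, 3.41, 4.77 and 0.0686 RPKM from E13.5 to P90. Its share of cells went from 62.6% (53.99 to 70.6%) at E13.5 through 45% at E15.5 and 20.9% at E18.5 to 9.70% in P1 cells and 16.7% in P7 cells, and was 0.615%, or 2 cells, in the adult. In the oligodendrocyte-like cells left out at P7 it was over 10 in 56.2% of 89 cells (45.2 to 66.7%) and had a mean of 40.7 RPKM there, and the part of such cells in the P7 value was not tested. Gpc2 had means of 355.8, 167.7, 92.3, 52.9, 23.2 and 0.448 RPKM. Its share was 96.4% at E13.5 and 93.6% at E15.5, 76.5% by E18.5, then 59.7% in P1 cells, 34.4% in P7 cells and 0.923% in the adult, the widest change in share of the set: nearly every young neuron and nearly no adult one.

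Cd24a had means of 1242 and 1237 RPKM at E13.5 and E15.5, then 461.5, 331.5, 193.6 and 24.3 RPKM. Every cell at E13.5 was over 10, as were 96.8% by E18.5, 88.4% of P1 cells, 73.3% of P7 cells and 22.5% (18.04 to 27.4%) of P90 cells. Nrep (chr18:33437019-33464029, minus strand) went from 1955 through 1513, 787.9, 705.4 and 575 to 57 RPKM, yet 70.2% of P90 cells (64.9 to 75.1%) were still over 10. The 2 E18.5 plates put Cd24a at 36.5% and 37.8% and Nrep at 36.9% and 43.6% of E13.5, both below 50% in each.

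Sox4 was low at E15.5 and higher again at E18.5. From E13.5 to P90 its means were 77.5, 31.1, 56.2, 34.2, 23 and 1.76 RPKM, and its share of cells followed, at 76.3% (68.3 to 83.1%), 61.4% (52.8 to 69.5%), 76.5% (69.7 to 82.4%), 60.8%, 53.3% and 6.15%. Both E18.5 plates gave a higher mean, 55 and 57.4 RPKM, than E15.5. Both held spike-in RNA and the E15.5 cells did not, so stage and preparation cannot be told apart in this rise. At P1 the plate with spike-in RNA had 41.9 RPKM and the cells without it 30.1 RPKM, which puts Sox4 below 50% from P7 or from P1, respectively.

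Sox11 and Sox12 had means under 10 RPKM at all stages. Sox11 had means of 2.77, 1.57, 0.526, 0.619, 0.141 and 0.257 RPKM, with 12.9% of cells over 10 at E13.5 (7.86 to 19.7%), 6.43% at E15.5 and between 0.615% and 1.87% afterwards. Sox12 had 7.17, 4.004, 4.98, 5.18, 4.40 and 0.687 RPKM and was over 10 in 25.2%, 12.1%, 18.2%, 18.3%, 11.1% and 1.85% of cells. From E15.5 to P7 the mean of Sox12 was 55.8 to 72.3% of that at E13.5 over all cells, and at P7 it was 43.4% in cells with Th over 150 RPKM and above the E13.5 mean in cells with Th at or below 10.

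Dcx had means of 90.2, 86.2, 46.2, 48.7, 29.7 and 5.57 RPKM, with 92.1% of E13.5 cells over 10, 84.3% and 84.5% of those from E15.5 and E18.5, 75% from P1, 56.7% from P7 and 16.3% (12.5 to 20.8%) from P90. Stmn1 had 954.3, 1069, 952, 813.8, 736.6 and 208.8 RPKM, and every P90 cell was over 10, the lower quartile being 140.1 RPKM. Stmn1 was detected in every kept heterozygote cell except 1 of 90 at P7.

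**Figure D2:**
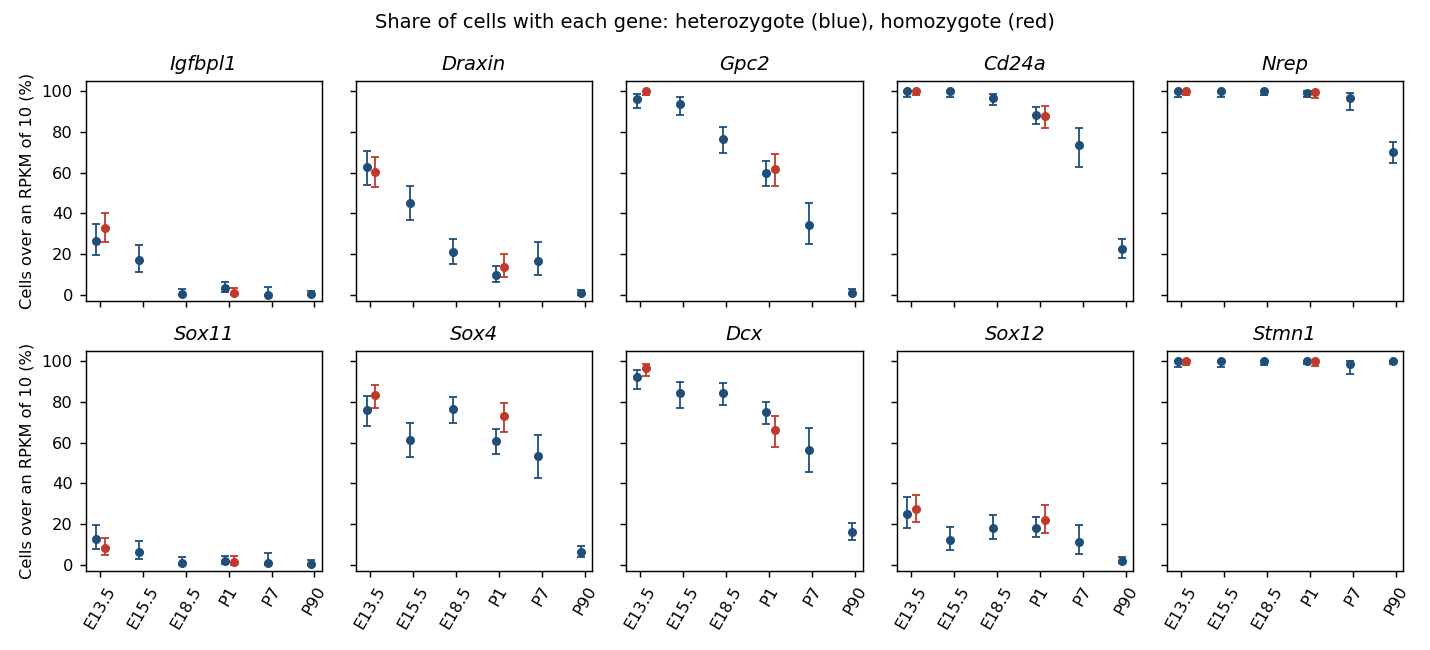
Percentage of cells over an RPKM of 10 for each gene by stage, heterozygote in blue and homozygote in red, with exact binomial 95% intervals that cover counting error only. Gpc2 goes from 96.4% at E13.5 to 0.923% at P90 and Stmn1 stays at or near 100% at all stages.

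The number of these genes over an RPKM of 10 was counted in each cell. The mean of this number follows from the shares of the single genes, so it does not test whether they occur together. Of the 10, the median cell had 7 over an RPKM of 10 at E13.5 (quartiles 6 and 8), 6 in both later embryonic stages, 5 in both early postnatal ones and 2 at P90 (quartiles 2 and 3). The lowest E13.5 cell had 4 and the highest P90 cell 5. At least 5 were detected in 98.6% of cells from E13.5, 95% from E15.5 and 88.8% from E18.5, in 74.6% from P1 and 52.2% from P7, and in 0.923%, or 3 cells, from P90. Within a stage, the number of genes detected together had a Spearman rho of -0.0974 to 0.144 with the genes detected in the cell over the 6 heterozygote groups, of 0.0823 in E13.5 homozygotes and of 0.274 in P1 homozygotes (0.272 with reads), given as a description of cells that share plates or animals. Between pairs of members across the E13.5 heterozygote cells, the highest rho was 0.504, for Igfbpl1 and Nrep, and the lowest -0.195, for Cd24a and Gpc2. Pairs between these included Sox4 and Dcx at 0.157, Draxin and Gpc2 at 0.123 and Sox4 and Cd24a at -0.0142.

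**Figure D3:**
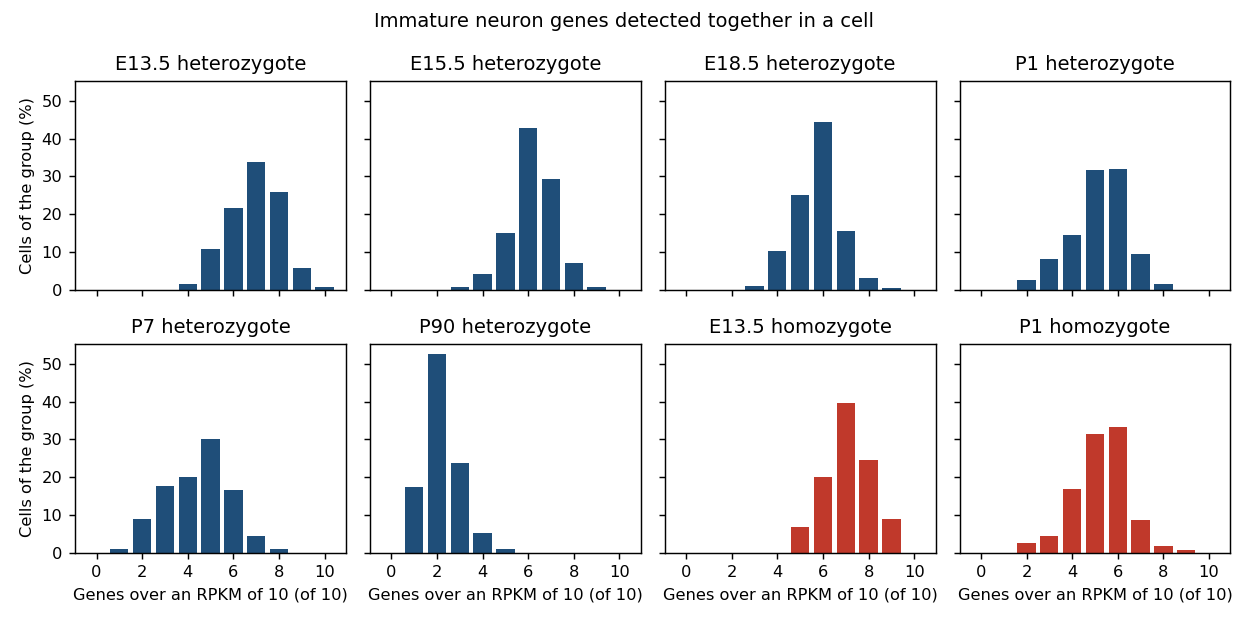
Number of the 10 genes over an RPKM of 10 in a cell, as a percentage of the cells of each group, heterozygote in blue and homozygote in red. The median moves from 7 at E13.5 to 2 at P90.

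Igfbpl1 split the E13.5 cells, and this split was looked at after its values had been seen. The 37 cells over 10 included none with Slc6a3, the dopamine transporter that appears as dopamine neurons mature, over 10, while 36 of the other cells (35.3%) had it. The difference was -35.3 percentage points (Newcombe 95% interval -44.95 to -22.6), and a count of 0 in 37 cells allows a share of up to 8.11%. In the homozygotes none of 59 Igfbpl1 cells and 4.17% of the other 120 had Slc6a3 over 10, a difference whose interval (-9.38 to 2.39 points) includes 0. At E15.5 1 of 24 Igfbpl1 cells and 41.4% of the others had it, a difference of -37.2 points (-46.9 to -19.01).

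Nhlh2, a helix-loop-helix factor of young neurons, was over 10 in 97.3% of the heterozygote E13.5 cells with Igfbpl1 and in 63.7% of those without, a difference of 33.6 points (19.5 to 43.5), and in the homozygotes in 88.1% and 62.5% (25.6 points, 12.2 to 36.4). Its relative Nhlh1 was over 10 in 24.3% and 0.980%, and in the homozygotes in 11.9% and 0%. The mature neuron gene Snap25 was over 10 in 81.1% and 72.55% of these heterozygote cells (8.53 points, -8.59 to 21.8). Nrsn2, another one, was over 10 in 8.11% and 22.55% (-14.4 points, -24.9 to 0.507). Pitx3 had means of 650 and 334.8 RPKM, over 10 in 97.3% and 84.3% of cells (12.98 points, 0.443 to 21.6). In the homozygotes Pitx3 had 19.1 and 18.7 RPKM. Nrep had a mean of 2657 RPKM with Igfbpl1 and 1700 without, Sox4 106.9 and 66.8, and Dcx 114.8 and 81.3 RPKM, while the mean of Gpc2 was lower with Igfbpl1, at a ratio of 0.826 to the 373.1 RPKM without, and it was over 10 in 100% and 95.1% of cells. In the homozygotes Nrep had 2059 and 1786 RPKM, Sox4 91.2 and 62.6 and Dcx 115.6 and 96.4. At E15.5 Nrep had 1594 and 1496 RPKM and Dcx 89.7 and 85.5, and Sox4 was lower with Igfbpl1, at 23.8 and 32.6 RPKM and 50% and 63.8% of cells (-13.8 points, -34.1 to 6.87). Th was over 10 in 62.2% and 71.6% of the heterozygote E13.5 cells, a difference of -9.41 points whose interval, -27.3 to 7.28, includes 0, and in 57.6% and 50% of the homozygote cells, a difference the other way of 7.63 points (-7.82 to 22.3). The mean of Th was 882.7 RPKM with Igfbpl1 and 1500 without in the heterozygotes of E13.5, 685.2 and 1783 at E15.5, and 712.5 and 492.5 in the homozygotes. In the heterozygotes of E13.5, median reads per cell were 2275272 and 2365792, and the cell cycle genes Mki67 and Top2a were over 10 in no cell of either kind.

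**Figure D4:**
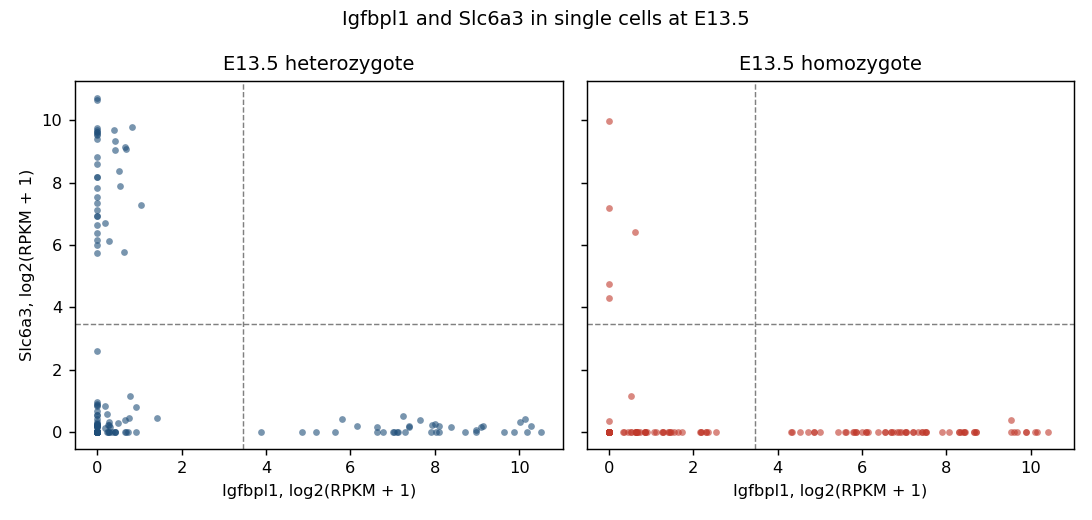
Igfbpl1 against Slc6a3 as log2(RPKM + 1) in each E13.5 cell, heterozygote on the left and homozygote on the right, with dashed lines at an RPKM of 10. No cell lies past both lines, among 37 heterozygote and 59 homozygote cells past the Igfbpl1 line.

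The homozygotes ask whether cells without Pitx3 keep these genes at another level. At E13.5, 1 of 8 genes at or over 10 RPKM was past 1.5-fold, where 15.1% of 8106 genes were: Draxin had 38 RPKM in homozygotes and 59.6 in heterozygotes, a ratio of 0.637. This ratio was within 1.5-fold by median RPKM (0.789), mean log2(RPKM + 1) (0.742), CPM (0.705) and without cells that held 2 or more markers of another cell type (0.667). The share of cells with Draxin was 60.3% and 62.6%, a difference of -2.26 points (-12.8 to 8.51), and the 3 homozygote plates had 37.6, 30.2 and 40.9 RPKM. Th itself differed by genotype, with means of 565 and 1336 RPKM and 43.02% and 64.75% of cells over 150 RPKM. Cells of one Th class may therefore not be alike in both genotypes. Cells with Th over 150 RPKM had 40.6 and 70.3 RPKM of Draxin, the 17 and 6 cells with Th between 10 and 150 had 25.2 and 43.95 RPKM, and cells with Th at or below 10 had 38.1 and 39.4 RPKM. Igfbpl1 had 90.4 and 101.5 RPKM, Sox4 72 and 77.5, Dcx 102.7 and 90.2, Stmn1 933.2 and 954.3, Cd24a 1174 and 1242, Nrep 1876 and 1955 and Gpc2 318.1 and 355.8 RPKM. Among cells with Th over 150, Sox4 was over 10 in 89.6% of homozygote and 72.2% of heterozygote cells (17.4 points, 5.37 to 28.6), at means of 80.8 and 73.5 RPKM. The 17 and 6 cells with Th between 10 and 150 had 42.9 and 130.4 RPKM of Sox4, and cells with Th at or below 10 had 69.9 and 78.45 RPKM, in 78.8% and 81.4% of cells, so the sign was not the same in all 3 classes. For Igfbpl1 cells with Th over 150 had 88.3 RPKM in homozygotes and 73 in heterozygotes, those between had 225.3 and 138.4 RPKM, and cells with Th at or below 10 had 65.3 RPKM in homozygotes, a ratio of 0.419 to heterozygotes. That last ratio is one of means over few high cells, with medians of 0.447 and 0.282 RPKM. Its shares of cells differed by 12.8 points with Th over 150 (-0.834 to 26.2) and by -3.15 points with Th at or below 10 (-20.4 to 12.8), both intervals including 0. The median number of genes detected together was 7 in both genotypes. The genotypes differed at E13.5 in spike-in RNA and in depth too, with a median of 753256 reads in homozygote and 2354720 in heterozygote cells. Genotype, spike-in and depth cannot be told apart there. With every cell thinned to 100000 reads the ratio of Draxin was 0.634, but thinning evens the counted reads only and does not part genotype from preparation.

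At P1, none of 6 genes was past 1.5-fold, where 11.7% of 8435 genes were, and none was within the spike-in cells, where 14.4% were. Dcx had 33.2 RPKM in homozygotes and 48.7 in heterozygotes and was over 10 in 66% and 75% of cells, a difference of -8.96 points (-18.01 to -0.126), and against spike-in heterozygote cells, at 39.1 RPKM, the difference was -9.49 points (-20.3 to 2.32). Sox4 had 46.1 and 34.2 RPKM and 73% and 60.8% of cells, a difference of 12.1 points (2.84 to 20.8), while against spike-in heterozygote cells alone, at 41.9 RPKM, the difference was 9.13 points with an interval (-2.51 to 21.01) that includes 0. Among cells with Th over 150 the difference in Sox4 was wider, at 59.4 RPKM in the 88 homozygote cells and 35.1 in the heterozygote cells, with 84.1% and 60.6% of cells (23.5 points, 12.1 to 33.2), and within spike-in cells it was 59.4 against 40.9 RPKM (19.9 points, 6.11 to 33.4). Th itself differed by genotype at P1, at means of 750.4 and 1378 RPKM and with 55.35% and 65.3% of cells over 150. Slc6a3 was over 10 in 22.6% of homozygote and 54.85% of heterozygote cells. Cells with Th over 150 may therefore differ in make-up between the genotypes. In cells with Th at or below 10 Sox4 had 30.9 and 32 RPKM, a difference in share of -6.97 points (-24.8 to 11.4). Markers of other cell types moved with genotype at P1: the summed mean of the 5 microglial markers was 344.2 RPKM in homozygotes and 105.9 in heterozygotes, that of the 5 endothelial and mural markers 8.12 and 129.9, of the 5 astrocyte markers 30.2 and 16.4 and of the 8 oligodendrocyte markers 38.1 and 49.7 RPKM. With cells that held 2 or more markers of another cell type left out, the ratio of Sox4 was 1.31 in place of 1.35 and that of Dcx 0.706 in place of 0.682. Within P1 heterozygotes, 1 of 6 genes was past 1.5-fold between the plate with spike-in RNA and the cells without it, for which no plate is named, where 18.9% of genes were: Gpc2, with 68.5 and 44.4 RPKM. Plate and spike-in cannot be told apart there.

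Th level was used to part the cells of each stage, over 150 RPKM against at or below 10, with 3 to 20 cells per group between 100 and 200 RPKM and so near the upper limit. In the heterozygotes 54.8 to 74.3% of the cells of a stage were Th-high, and the Th-low cells numbered 43, 30, 37, 58, 27 and 98 over the 6 stages, or 19.8 to 30.9% of a stage. The median number of genes detected together was 7 in both at E13.5 and 2 in both at P90, equal too at E15.5 and P1, and 6 in Th-high against 5 in Th-low cells at E18.5 and 5 against 4 at P7. In the homozygotes it was 7 in both at E13.5 and 6 against 5 at P1. Of the homozygote cells, 43.02% at E13.5 and 55.35% at P1 were Th-high.

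At E13.5, 2 of 8 genes were past 1.5-fold, where 26.5% of genes were. Draxin was the higher one, with 70.3 RPKM in Th-high and 39.4 in Th-low cells and 68.9% and 48.8% of cells over 10, a difference of 20.1 points (2.41 to 36.7). Igfbpl1 was the lower one, with 73 RPKM in Th-high cells, at a ratio of 0.468, but its shares, 22.2% and 32.6%, differed by -10.3 points with an interval of -26.97 to 5.10. The other 6 had ratios of 0.926 to 1.15. At E15.5 none of 8 was past the limit, where 32.4% of genes were, although Dcx was over 10 in 89.2% of Th-high and 66.7% of Th-low cells (22.5 points, 6.58 to 41.03).

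At E18.5, 2 of 6 were past it, where 23.1% of genes were. Sox4 had 61.9 RPKM in Th-high and 40.2 in Th-low cells, with 81.3% and 64.9% of cells (16.4 points, 1.25 to 33.5), and Gpc2 had 95.2 and 59.9 RPKM, with 79.9% and 59.5% of cells (20.4 points, 4.38 to 37.4). Plate 18_1 alone gave 63.1 and 24.4 RPKM for Sox4 and plate 18_2 alone 60.6 and 48.7, and without 18_1 neither gene was past 1.5-fold. Neither was between the highest and the lowest tertile of cells by Th, at ratios of 0.994 for Sox4 and 1.014 for Gpc2, and Sox4 had a ratio of 1.43 with cells thinned to 100000 reads and 1.49 by CPM. The ratios were wider by median RPKM, at 1.98 for Sox4 and 2.40 for Gpc2, by mean log2(RPKM + 1), at 2.10 and 2.43, and for Gpc2 without cells that held 2 or more markers of another cell type, at 2.31. At P1, 1 of 6 was, where 21% of genes were: Nrep had 589.4 RPKM in Th-high and 976 in Th-low cells, but medians of 541.5 and 636.2, and with the highest cell of each group dropped the ratio went from 0.604 to 0.828, which is within the limit. The summed mean of the 5 microglial markers was 75.95 RPKM in these Th-high and 260 in the Th-low cells, and with cells that held 2 or more markers of another cell type left out the ratio of Nrep was 0.839.

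At P7, 5 of 6 genes were past 1.5-fold, where 40.4% of genes were. Stmn1 had 886.4 RPKM in Th-high and 453.3 in Th-low cells, Cd24a 240.2 and 115.1, Gpc2 28.6 and 13.7, Dcx 32.7 and 21.6, and Nrep 498.4 and 756.6. Both Th classes of P7 were mixed: at least 2 oligodendrocyte markers were over 10 in 40.7% of Th-low and 38.6% of Th-high cells. The levels were higher in the Th-low class. The summed mean of 8 oligodendrocyte markers was 2709 RPKM in Th-low and 72.5 in Th-high cells, that of 5 endothelial and mural markers 1533 and 3.56, of 5 microglial markers 520.8 and 253.7 and of 5 astrocyte markers 73.9 and 44.5. The 41 cells with at least 2 markers of another cell type included 14 of the 27 Th-low and 25 of the 57 Th-high cells. With these left out, 2 genes were past the limit, Cd24a at a ratio of 1.59 and Gpc2 at 1.51, while Stmn1 stood at 1.20, Nrep at 0.774 and Dcx at 0.850. These ratios rest on few Th-low cells, and the share over all genes was not taken for them.

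At P90, where 3 genes still had a mean of at least 10 RPKM in either class, 1 was past the limit, and 12.2% of genes were. Cd24a had 35.2 RPKM in Th-high and 11 in Th-low cells, a ratio of 3.19, and was over 10 in 29.2% and 13.3% of them (15.9 points, 5.74 to 24.8). It was higher in the Th-high cells of each of the 4 plates: 24.8 against 4.34 RPKM in P90_1, 59.1 against 31.7 in P90_2, 23 against 7.15 in P90_4 and 24.8 against 4.82 in P90_5. Stmn1 had 224.4 and 188.7 RPKM and Nrep 53.4 and 60.8, and Nrep was over 10 in 66.9% and 78.6% of cells, a difference the other way of -11.7 points (-21.7 to -0.521). The summed mean of the 8 oligodendrocyte markers was 36.9 RPKM in Th-high and 16.6 in Th-low cells, and with cells that held 2 or more markers of another cell type left out the ratio of Cd24a was 3.004.

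In the homozygotes none of 8 genes was past 1.5-fold between the Th classes at E13.5, where 18.6% of genes were, and Draxin had 40.6 and 38.1 RPKM there. At P1 1 of 6 was, where 22.1% of genes were: Sox4 had 59.4 RPKM in Th-high and 30.9 in Th-low cells, with 84.1% and 55.1% of cells (29 points, 13.1 to 44.1), and both plates showed it, at 49.9 against 24.7 and 70.2 against 35.9 RPKM. The summed mean of the 5 microglial markers was 118.9 RPKM in these Th-high and 452.9 in the Th-low cells, and that of the 5 astrocyte markers 18.5 and 42.05 RPKM, and their part in the Sox4 difference was not tested. Within either Th class of the heterozygotes the stage at which a gene went below 50% was that of all cells for Igfbpl1, Draxin, Gpc2, Cd24a, Sox4, Dcx and Stmn1, and it was another in 1 class each for Nrep, which stayed below 50% from P7 in Th-low cells, for Sox11, from E15.5 in Th-high cells, and for Sox12, from P7 in Th-high cells.

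**Figure D5:**
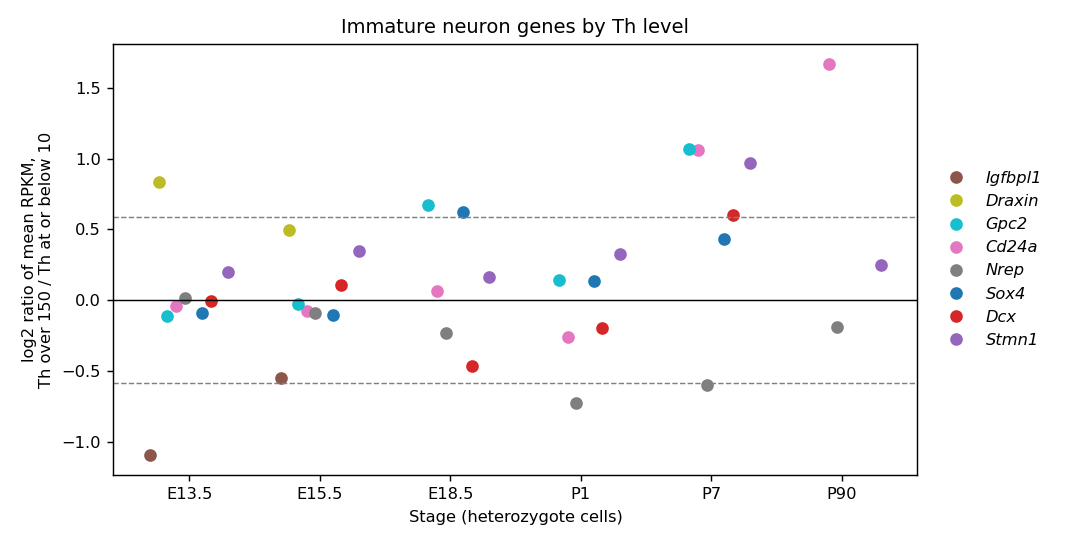
log2 ratio of mean RPKM between cells with Th over 150 and cells with Th at or below 10, by stage in heterozygotes, for genes with a mean of at least 10 RPKM in either class; dashed lines mark 1.5-fold. Draxin lies above and Igfbpl1 below the lines at E13.5, and Cd24a above them at P90.

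Among P90 cells over 150 RPKM of a gene that marks a neuron class, Cd24a was over 10 in 21.1% of 71 Slc6a3 cells (12.3 to 32.4%), 20.6% of 170 Nxph4 cells (14.8 to 27.5%), 14.8% of 81 Gad2 cells (7.90 to 24.4%), 32.3% of 62 Aldh1a1 cells (20.9 to 45.3%) and 40% of 10 Vip cells (12.2 to 73.8%). Dcx at P90 was over 10 in 24.1% of the Nxph4 cells (17.9 to 31.3%), 13.6% of the Gad2 cells, 10% of the Vip cells, 9.68% of the Aldh1a1 cells and 7.04% of the Slc6a3 cells (2.33 to 15.7%). The classes can share cells.

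Relatives of the members and other genes of young neurons were read the same way. Of the 9 other SOX genes listed, none reached a mean of 10 RPKM at E13.5. The other stathmins Stmn2, Stmn3 and Stmn4 had 39.99%, 119.7% and 52.6% of their E13.5 level left at P90, the doublecortin relatives Dclk1 and Dclk2 54.4% and 29.5%, and the glypicans Gpc1 and Gpc6 27.5% and 22.3%. Of 22 other genes of young neurons, 21 had a mean of at least 10 RPKM at E13.5, with a median of 19.99% left at P90. Of these 21, 6 were below 10% at P90, where 2.27% of the 7669 genes were, and 15 below 50%, where 26.9% were. The 6 were Tubb2b (4.84%), Dpysl3 (4.77%), Dpysl5 (6.53%), Marcksl1 (5.66%), Nnat (7.68%) and Crmp1 (9.88%), and in each of them the mean first stayed below 50% at P90. Gap43, a growth cone protein, had 92.5% left.

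Of 10 genes of mature neurons, 7 had a mean of at least 10 RPKM at E13.5. Of these, 3 were past 2 times their E13.5 level at P90, where 10.3% of the 7669 genes were. Another 2 were below 50% of it, near the share of all genes, 26.9%. Snap25, a protein of synaptic vesicle release, went from 94.5 to 1284 RPKM and Nrsn2 from 15.1 to 600 RPKM, while Map2 and Nefm had 22% and 21.6% left. Of 10 genes of dividing cells or progenitors 1, the intermediate filament gene Vim, had a mean of at least 10 RPKM at E13.5, and had 5.20% of it left at P90. The eGFP reporter that selected the cells had 5.02% of its E13.5 level left at P90.

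Over the 8 groups, the genes whose log2(mean RPKM + 1) was most like the mean standardized profile of the members included Dlgap4 (Pearson r of 0.998), Dpp3 (0.997), Vash2 (0.995) and Rnf2 (0.994). Such likeness was common, with 340 of 7669 genes over 0.95. The gene nearest to a single member was Rnf122 for Draxin, Pafah1b3 for Gpc2, Iqcj for Cd24a, Gm13597 for Nrep, Zfp57 for Dcx, Ttll12 for Stmn1, Sarm1 for Sox4, Zfp281 for Sox11, Soga1 for Sox12 and Scyl2 for Igfbpl1, with r between 0.987 and 0.997. Pearson r does not depend on the size of a fall. From E13.5 to P90 Scyl2 went from 12.8 to 5.56 RPKM, a far smaller fall than that of Igfbpl1. Ttll12 went from 36.8 to 6.86 RPKM, a fall close to that of Stmn1.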

How the data were processed

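Per the labels and the methods, single GFP-positive cells were dissociated, sorted and sequenced with Smart-seq2, and the authors aligned reads with STAR to mm10 with eGFP and spike-in sequences and kept uniquely mapping reads. The authors deposited, for each cell and gene entry, an unnormalized read count and an RPKM, made with rpkmforgenes from an Ensembl annotation. The counts were whole, 45 values had reads but an RPKM of 0, and no 2 cells held identical counts. Reads on entries without a symbol were 0.211% of all.

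Cells were kept with over 100000 reads and at least 15% (3.4% at P90) detected out of the 31526 entries that had reads in at least 1 cell (1649 cells). Cells were clustered (4 t-SNE maps, perplexity 30, 5 neighbours, infomap, seed 1) with as many variable genes as the study's methods state. Clusters in which 3 or more oligodendrocyte markers were each over an RPKM of 10 in most cells, 162 cells in all, were removed. The paper instead left out cells that clustered with ones lacking eGFP and high in Olig1. No doublet caller was run. The alignment-based filters of the methods were not applied here. Levels are means over the cells of a group, shares have Clopper-Pearson intervals (scipy 1.17.1) and differences of shares Newcombe intervals (statsmodels 0.14.6), all at 95% and for counting error only, and a share of 0 has the limit that 3 counts allow. These limits depend on the number of cells only; depth per cell is the sum of its counts and does not enter them. Folds were read against all genes with a mean of at least 10 RPKM in the starting group, or in either group. The calculation was tested on simulated data.

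The genes named are the members, relatives, lists of young, dividing and mature neuron genes, the 5 genes most like the members (1 of them is not reported here) and the 1 nearest to each, reporter and cell type markers, and Slc6a3 and the other genes that mark cell classes. Members and lists were chosen with earlier results of these data known. The cells with Igfbpl1 were singled out after their values had been seen.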

Additional observations from a re-analysis of the deposited data

How the results depend on the processing

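The count of 7 genes below 10% at P90 held under every alternative run, leave-one-plate-out included (7 to 7), with 1 exception. It was 9 of 10 when genes with a mean of at least 1 RPKM entered, where 4.02% of all genes were. The stage from which each of the 10 genes stayed below 50% held without each plate (10 to 10). Dcx stayed below 50% from E18.5 by median RPKM and from P1 by mean log2(RPKM + 1), summed CPM or P1 spike-in cells alone. Sox4 did so from P7 with those spike-in cells alone.

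The genotype and Th counts moved more, and the cause was not tested. The set of genes tested could change with the setting, and the share over all genes was taken for few settings. These counts alone are therefore not results about the members. At a mean of at least 1 RPKM the genotype share over all genes was 30.2% at E13.5 and 27.1% at P1. At E13.5 the genotype count of 1 was 0 by mean log2, by CPM and at 2-fold, and the 1 gene was Igfbpl1 in place of Draxin by median and in cells with Th at or below 150. At P1 the genotype count of 0 was 1 by median, over all gene entries, with no cluster left out, in cells with Th over 150 and at a mean of at least 1 RPKM, and 2 by mean log2 and in cells without spike-in RNA. For Th, the count of 0 at E15.5 was 2 by median, mean log2, CPM and highest against lowest tertile of Th, and 1 with cells thinned to 100000 reads and over all gene entries. The 2 of E18.5 were 1 by CPM and in thinned cells, and 0 by tertiles, where Sox4 had a ratio of 0.994, and at 2-fold. The lowest tertile of E18.5 also held Th-high cells. The 2 of E13.5 were 1 at 2-fold. The 1 of P1 was 0 by median, mean log2, at 2-fold and with cells of 3 oligodendrocyte markers left out one by one, and 4 at a mean of at least 1 RPKM. It was 2 by tertiles and 2 with no cluster left out, where Nrep, at a ratio of 0.889, was not among them. The 5 of P7 were 3 in thinned cells, 8 of a larger tested set with the oligodendrocyte markers applied cell by cell, and 2 at 2-fold. The 1 of P90 was 2 by mean log2 and 3 at a mean of at least 1 RPKM. Detection over 50 RPKM moved the median number of genes per cell at P7 from 5 to 3.

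Leaving out 1 plate at a time gave 0 to 2 genes for Th at E18.5 (0 without 18_1), 1 to 2 at P90 (2 without P90_4), 1 to 1 for genotype at E13.5 and 0 to 2 at P1 (2 without P1H_1), and medians per cell of 7 to 7 at E13.5 and 5 to 5 at P1 in homozygotes and of 6 to 6 at E18.5 and 2 to 2 at P90 in heterozygotes.

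Of 2 alternatives chosen after seeing the data, dropping the highest cell of each gene and group gave 1 for genotype at P1 and, for Th, 1 at E15.5 and 0 at P1. Leaving out cells with at least 2 markers of another cell type gave 0 for genotype at E13.5 and, for Th, 0 at P1 and 2 at P7, where Dcx had a ratio of 0.850. No paired analysis was possible because the numbers in the labels name cells and tie no animal of a group to another, and no test was run; Th classes within a plate were compared by value only. Since each group counts as 1 sample, the spread between animals is unknown. Shares near 0 can depend on depth too, and the limits given take in the number of cells only.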
